A study of Bos taurus and Cervus elaphus with 24 samples.

Results

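The genes that milk cells use to make milk protein and to wrap milk fat were followed in the blood of cattle and deer, where 9 of them were measured by 30 of the 43653 probes of a cattle oligonucleotide array. The members are the 4 casein genes CSN1S1, CSN1S2, CSN2 and CSN3, the whey protein gene LALBA, and 4 genes of milk fat: BTN1A1, XDH, MFGE8 and GPAT4, which the array lists under its older symbol AGPAT6. They were taken by gene name alone, from all non-control probes. The labels call the material peripheral blood nuclear cells, and the RNA was total RNA from whole blood drawn into tubes that preserve RNA. The 6 groups hold 4 arrays each, from dairy cattle of the Holstein-Friesian (HF) and Polish Red (PR) breeds and from deer (Cervus elaphus), with the same 4 animals of a breed or species bled dry and again at peak lactation, per the series' design text. On every array Cy5 carried the animal's RNA and Cy3 a common reference pooled from 20 cattle outside the groups, so each value is a log2 ratio of an animal to that pool. The labels give no age and no number of calvings.

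Caseins are the main proteins of ruminant milk, and CSN3, kappa-casein, keeps the casein micelles in suspension. LALBA, alpha-lactalbumin, is the subunit that turns a galactosyltransferase into lactose synthase. Milk fat leaves the mammary cell as droplets wrapped in plasma membrane, and butyrophilin (BTN1A1) and xanthine oxidoreductase (XDH) are main proteins of that membrane. MFGE8, or lactadherin, coats the globule and in other tissues tags dying cells for phagocytes, XDH also carries out the last steps of purine breakdown, and GPAT4 attaches the first fatty acid to glycerol-3-phosphate when triglycerides are built.

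PR dry replicate 1 stood apart from the other 23 arrays. Its median Cy5 signal was 2036 scanner units against 108 to 254 elsewhere, 43635 of 43653 probes were well above background against 30835 to 39110, and 703 spots were outliers against 2 to 75. The correlation of its spike-in controls with their known amounts was 0.331, and that of the arrays of HF animals 2 and 3 was 0.174 to 0.401. HF lactation replicate 2 (39110) and PR lactation replicate 3 (37764) had the next highest counts of probes above background. The log2 ratios of deer lactation replicate 2 spread least among the deer arrays (SD 0.52, against 0.66 to 0.85). The values of several member probes are given without these arrays beside the results. The HF arrays lay on slides F to I, lettered here by slide number. The PR arrays lay on slides A to C, apart from PR dry replicate 2 on slide I, and the deer arrays on slides D, E and J. Slide D held deer dry replicates 1, 2 and 4 and slide E deer lactation replicates 2 and 3. Only slide J held both deer states, so state and slide can hardly be told apart in deer. Deer and cattle shared no slide, and HF and PR shared slide I alone.

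The probes that carry the results were these 60-base oligonucleotides, of which a stretch of at most 30 bases from the 5′ end is shown. For CSN2 the stretches show how a bright and a dim probe of one gene differ: capitals in the first 2 sequences mark the 22 bases that both bright probes hold before the dim probe begins, and the capital in the third marks the base of its substitution.
CSN2 A_73_116854, bright: AATGCCCCCTCCTCACTTTTGA
CSN2 A_73_P232452, bright: caaagtgAATGCCCCCTCCTCACTTTTGA
CSN2 A_73_P311621, dim: attgactgcGactggaaatatggcaacttt
XDH A_73_106357: ataacctcagatgcacacttagatttgcaa
GPAT4 A_73_119291: gtaagggagagccggagccacgtcggggtt
GPAT4 A_73_P046731: aaagggaagtttcgaaattggagccacagt
GPAT4 A_73_P382761: tattttctatttctgccggaaaggaatgga
BTN1A1 A_73_P419356: cgtgcatctgaaggtggctgctctgggctc
BTN1A1 A_73_114446: tgattgcacttgtttgtatttgcattttcc
CSN1S2 A_73_P468873: ggagtggtgcatcaataagacaaatcgcag
CSN3 A_73_P107731: agcccacctgagatcaacacagtccaagtt
LALBA A_73_P203537: taccaggagcagagagacaaaggacatcat
The XDH, GPAT4 and BTN1A1 stretches belong to the probes with levels in blood, and the last 3 to the milk protein probes with the highest signals on the array that stood apart.

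Of the 30 probes, 9 probes of 5 genes were well above background in Cy5 on all 24 arrays. They are the single XDH probe, the 3 GPAT4 probes, both MFGE8 probes, 1 of 3 BTN1A1 probes and 2 of 5 CSN2 probes. The other 21 were near the local background on most arrays. Of the 21 probes for caseins and LALBA, 19 were of that kind, and 8 of those, in 3 genes, were above background on PR dry replicate 1 alone.

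**Figure D1:**
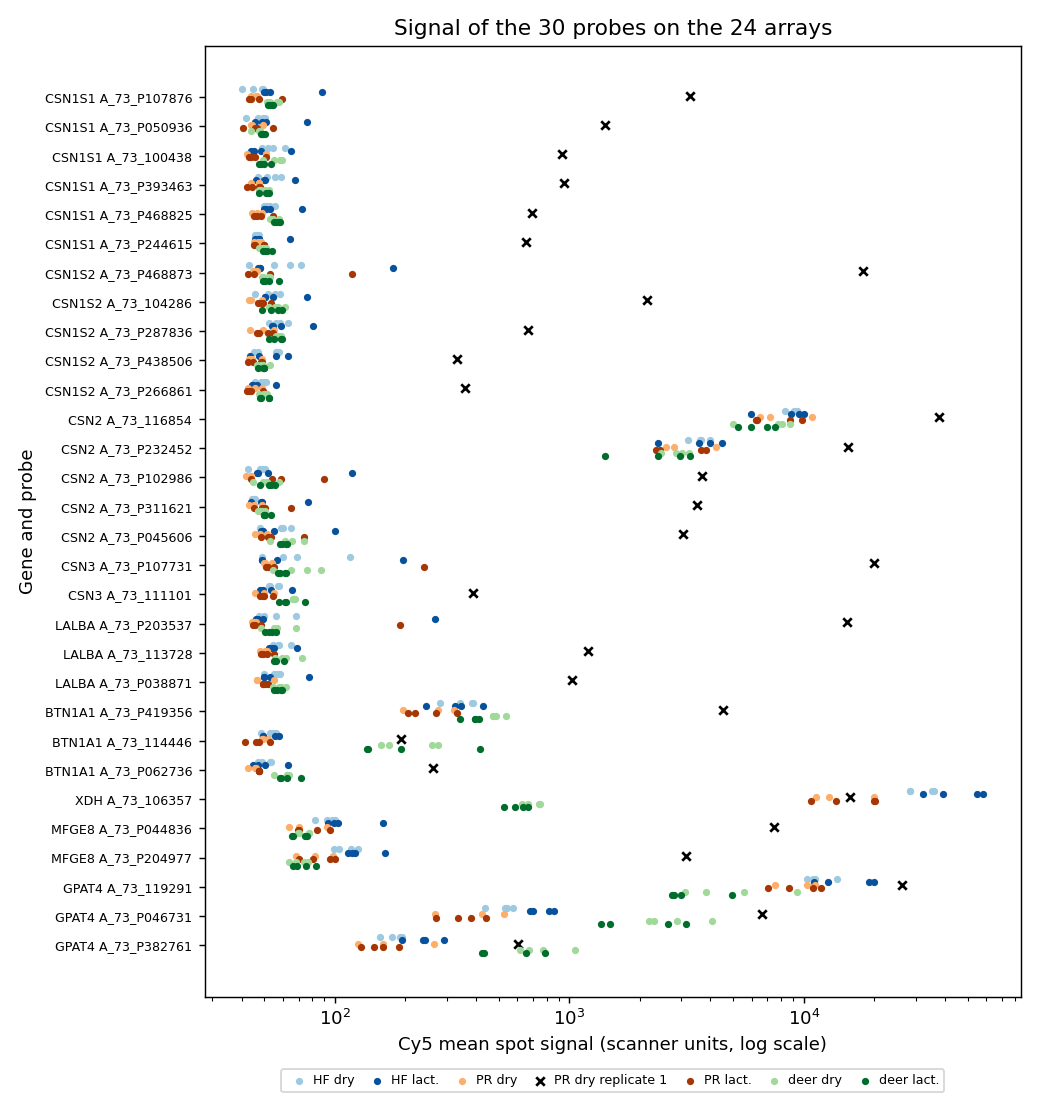
Cy5 mean spot signal of each of the 30 probes (rows) on the 24 arrays, in scanner units on a log axis, with 1 dot per array coloured by group and a cross for PR dry replicate 1. The casein and LALBA rows lie near 50 units on most arrays, except for both bright CSN2 probes, while XDH lies highest in HF and lowest in deer.

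The caseins and LALBA gave no level in blood that separated the states. The main CSN1S1 probe (the one with the highest mean Cy5 signal), A_73_P107876 for alpha-S1-casein (chr6:87152487-87153194, UMD 3.1, plus strand, a span longer than the probe), measured 40.2 to 88.2 Cy5 units on the 23 other arrays and 3259 on PR dry replicate 1. The probe A_73_P468873 of CSN1S2, alpha-S2-casein (chr6:87280739-87280798, plus strand), measured 42.4 to 176 and 17817. CSN3 by A_73_P107731 (chr6:87390632-87390691, plus strand) measured 48.7 to 240.4 and 20014. The LALBA probe A_73_P203537, which the files do not place on a chromosome, measured 44.4 to 266 and 15329. On the 23 arrays each of the 4 had a median of 49.4 to 57.3, and the highest value of each lay on HF lactation replicate 2 or PR lactation replicate 3.

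On PR dry replicate 1 all 19 probes were above background, and on HF lactation replicate 2 and PR lactation replicate 3 the number was 7 each. Of all probes 99.96%, 89.6% and 86.5% were above background on these 3 arrays. The other 21 arrays had 0 to 4. The same 3 probes, for CSN1S2, CSN3 and LALBA, had the highest Cy5 signals of the 19 on all 3 arrays, at 176, 196 and 266 units on HF lactation replicate 2 and 118, 240.4 and 189 on PR lactation replicate 3. On PR dry replicate 1 they ranked at the 95.8th, 96.5th and 94.7th percentile of all probes of that array. The 4174 probes that were above background on none of the other 21 arrays had a median of 1166 units there. The 3 probes are outside that set, each being above background on some of the 21 arrays, so a ranking against it favours them. Their signals exceeded those of 99.8%, 99.9% and 99.7% of the set. Of the 19 probes, some others of which are also outside the set, 10 lay above that median and 9 below it.

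The reference channel was high on the same arrays, although it holds the same cattle pool throughout. On PR dry replicate 1 the Cy3 signal was 4550 for CSN1S2, 5184 for CSN3 and 4069 for LALBA, against medians of 36.7, 42.0 and 39.7 on the other 23. On HF lactation replicate 2 it was 73.0, 76.1 and 100.07. The log2 ratios on PR dry replicate 1 were therefore small, at 0.37, 0.39 and 0.29.

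Of the 10 mammary epithelial markers, all 10 had a higher Cy5 signal on PR dry replicate 1 than their median on the other 21 arrays, 9 on HF lactation replicate 2 and 4 on PR lactation replicate 3, where 6 were lower. The median Cy5 signal of all probes was 2036, 254 and 151 units on these arrays, the first and second being the highest of all arrays. The share of all probes that were higher was not computed, so no trait of the markers is read from the counts. The 3 genes that follow were chosen after their values were seen, ELF5 and CDH1 from that list and GLYCAM1 from the other secreted milk proteins. Markers that went the other way on PR lactation replicate 3 include the keratins KRT19 (13677 against a median of 17945 on the other 21) and KRT8 (376 against 571). ELF5, a transcription factor of milk-producing cells, had a Cy5 signal of 11047 on PR dry replicate 1, 223 on HF lactation replicate 2 and 122 on PR lactation replicate 3, against a median of 48.7 on the other 21. E-cadherin (CDH1) had 21136, 332 and 277 against 53.5, with Cy3 at 5490, 120 and 125 against 40.0. GLYCAM1, a mucin-like milk protein, had 1238, 69.7 and 51.3 against 47.8, and was above background on none of the 23. Of the 10 markers, 5 were above background on all 24 arrays and each of the 10 was above it on at least 1 of the 23 arrays beside PR dry replicate 1. The mean log2 ratio of the list per array ran from -0.10 to 0.04 in HF dry, -0.12 to 0.01 in HF lactation, 0.05 to 0.20 in PR dry, -0.10 to 0.15 in PR lactation, 0.25 to 0.30 in deer dry and 0.20 to 0.31 in deer lactation. Its part in the milk protein signals was not tested.

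**Figure D2:**
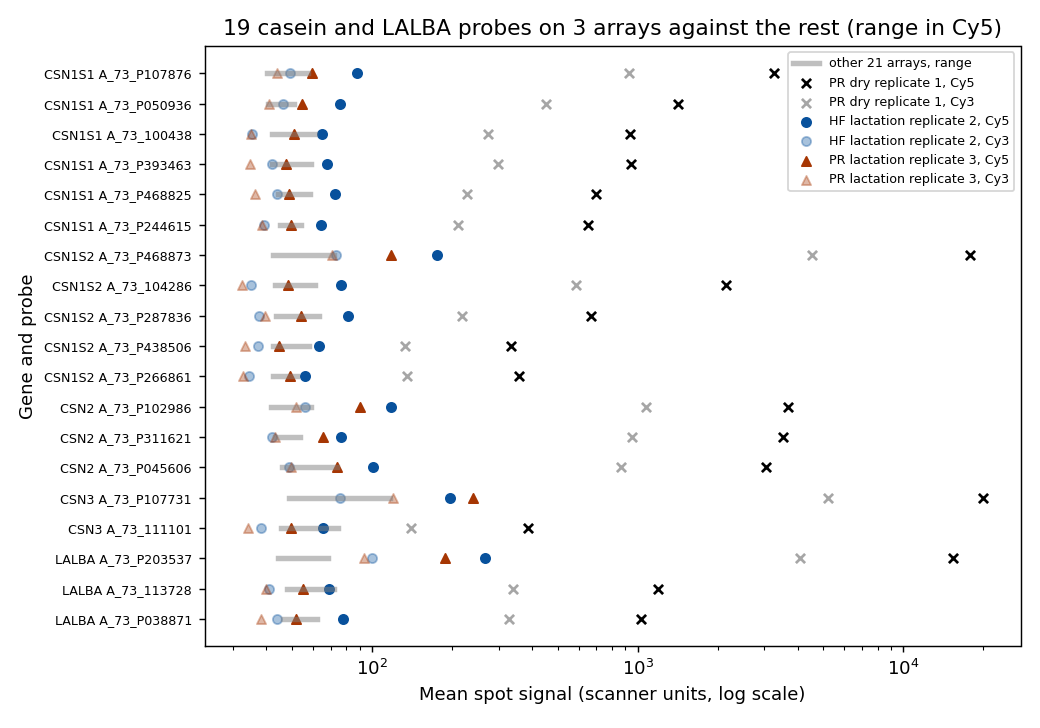
Mean spot signal of the 19 casein and LALBA probes that were not above background on all arrays, in scanner units on a log axis. Solid marks are Cy5 and pale marks Cy3 on PR dry replicate 1, HF lactation replicate 2 and PR lactation replicate 3, and grey bars span Cy5 on the other 21 arrays. The CSN1S2, CSN3 and LALBA probes named above stand out in Cy5 on all 3 arrays.

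Of 76 possible background calls in a group (the 19 casein and LALBA probes on 4 arrays), 13 were made in deer dry and 1 in deer lactation. HF dry had 4, HF lactation 7, all on replicate 2, PR dry 19, all on replicate 1, and PR lactation 7, all on replicate 3. The difference between the deer groups was not tested. The CSN3 probe A_73_111101 (chr6:87392614-87392673, plus strand) was called on 4 dry arrays, at 67.7, 66.6, 67.1 and 66.6 units, and on 1 of 4 at peak lactation, at 61.4, 61.7, 74.8 and 58.0. These ranges overlap through the third deer. It entered the tests through the deer dry arrays alone, so its difference between states is not given. A_73_P107731, above background on 3 dry arrays and no lactation array, also entered through the deer dry arrays alone, and its difference is not given either. Its Cy5 signals were 54.5 to 86.9 units in deer dry and 57.3 to 61.6 in deer lactation, and these ranges overlap. The CSN1S1 probe A_73_P050936 (chr6:87157263-87157913, plus strand) is in the authors' deposited table for deer, with means of -0.64 in deer dry and 0.32 in deer lactation. The authors' values ran from -1.52 to 0.13 in deer dry and from 0.06 to 0.43 in deer lactation, and these ranges overlap. With the processing used here the mean log2 ratios of this probe were -0.09 and 0.05. Its Cy5 signal on the 8 deer arrays was 43.8 to 50.5 units and never well above background. Over all probes, 33599 to 34695 were above background on deer dry arrays and 31678 to 33575 on deer lactation arrays.

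CSN2, beta-casein, differed from the other caseins in a pair of its probes only. Its probes A_73_116854 (chr6:87179783-87180572, minus strand) and A_73_P232452 (chr6:87179790-87180579, minus strand) each span 790 bases of genome with 60 bases of probe. Their Cy5 signals were 4999 to 10856 and 1416 to 4484 units on the 23 arrays, with the reference also bright at 2771 to 5946 and 728 to 2577. The remaining 3 CSN2 probes had medians of 48.7 to 58.1 units. The dim probe A_73_P311621 (chr6:87179761-87179820, minus strand) shares 38 bases with A_73_116854 without a difference and 31 bases with A_73_P232452 with 1 substitution, G10A, counted from the 5′ end of the dim probe. What the bright pair holds beyond it is the stretch shown in capitals above, and no probe of another gene on the array shares a run of 16 bases with either of the pair, on either strand. That search covered array probes and not transcripts, so it cannot tell which RNA the pair bound. The source of the bright signals was not tested.

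The log2 ratio of A_73_116854 was -0.23 ± 0.25 in HF dry, -0.29 ± 0.11 in HF lactation, 0.23 ± 0.27 in PR dry, 0.16 ± 0.17 in PR lactation, -0.24 ± 0.20 in deer dry and -0.28 ± 0.25 in deer lactation (SD, n = 4 each). Between states it differed by -0.05, -0.08 and -0.05 in HF, PR and deer (SE 0.15 each, limma adjusted p = 0.986, 0.962 and 0.945). The 95% intervals were -0.36 to 0.25, -0.38 to 0.23 and -0.35 to 0.26. Without HF animals 2 and 3 the HF difference was -0.22, without PR dry replicate 1 the PR difference was -0.02, and without deer lactation replicate 2 the deer difference was -0.13. HF lay below PR by 0.47 when dry and 0.45 at peak lactation (SE 0.15 each, limma adjusted p = 0.0729 and 0.159), and neither passed. Without HF animals 2 and 3 the first was 0.26 lower in HF, and with median centring of each array in place of loess the direction turned, at 0.01. Without PR dry replicate 2 both bright probes passed in the dry period, at -0.60 and -0.48 (limma adjusted p = 0.00989 and 0.0381), and with array weights the first passed in both states. PR dry replicate 2 was the single PR array on a slide with HF arrays. Its A_73_116854 value was -0.15, against 0.23 to 0.45 on the other PR dry arrays. With that array left out the breeds shared no slide, so breed and slide cannot be told apart in that setting.

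XDH was well above background on every array and had its own range in HF, in PR and in deer in the dry period. Its probe A_73_106357 lies at chr11:14176335-14176394 on the minus strand. The log2 ratios of HF animals 1 to 4 were -0.85, -0.70, -0.40 and -0.72 in the dry period and -0.35, 0.09, 0.21 and -0.17 at peak lactation. Every lactation value was above every dry value, and each animal was higher at peak lactation, by 0.50 to 0.79. In PR the values were -1.73, -1.14, -1.35 and -1.01, then -0.82, -1.36, -0.88 and -0.38. The PR groups overlapped, and 3 of 4 animals were higher at peak lactation. In deer they were -5.65, -5.76, -5.80 and -5.82, then -5.92, -5.21, -5.96 and -5.90, with 1 of 4 animals higher.

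The mean difference between states was 0.61 in HF (SE 0.19, 95% interval 0.21 to 1.01), 0.45 in PR (SE 0.19, 0.05 to 0.84) and 0.01 in deer (SE 0.19, -0.39 to 0.41). Here and for the other probes, the SE, interval and p-value come from group means and do not use the pairing of states within animals. With Benjamini-Hochberg adjustment over all probes none passed in limma (adjusted p = 0.362, 0.797 and 0.991). Without HF animals 2 and 3 the HF difference was 0.52, and without PR dry replicate 1 as well the PR difference was 0.31. Without deer lactation replicate 2 the deer difference was -0.17 (SE 0.18, limma adjusted p = 0.980). The HF and PR differences were not told apart (0.16, SE 0.27, limma adjusted p = 0.9998), nor was the deer difference from the mean of the breeds (-0.51, SE 0.23, adjusted p = 0.558). In the authors' deposited table for HF the probe is 1 of 437 listed, with normalized log2 values of 0.16 to 0.65 in HF dry and 0.67 to 1.24 in HF lactation.

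Between breeds, HF lay above PR by 0.64 in the dry period and by 0.80 at peak lactation (SE 0.19 each). The breeds shared a slide through PR dry replicate 2 alone, so breed and slide can hardly be told apart. The 4 HF values were above the 4 PR values in each state. The limma adjusted p was 0.0634 and 0.0804, just outside the threshold of 0.05, and without PR dry replicate 1 the second became 0.0351. The first became 0.0326 without PR dry replicate 2 and 0.0433 without deer lactation replicate 2, and with median centring it was 0.0160 at a difference of 1.13. With PR dry replicate 2 left out the breeds shared no slide. Without HF animals 2 and 3 and PR dry replicate 1 the dry difference was 0.38 (limma adjusted p = 0.674).

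XDH was lower in deer than in cattle, with a log2 difference of -4.77 when dry and -5.29 at peak lactation (SE 0.17 each, limma adjusted p = 3.07e-15 and 5.80e-16), which is 27.3-fold and 39.0-fold lower. Deer Cy5 signals were 527 to 751 units, against 10753 to 58417 in cattle. All probes are cattle sequence, so for deer the level of a transcript and the match of deer RNA to the probe cannot be told apart. Deer and cattle arrays also lay on different slides, so slide and species cannot be told apart either.

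**Figure D3:**
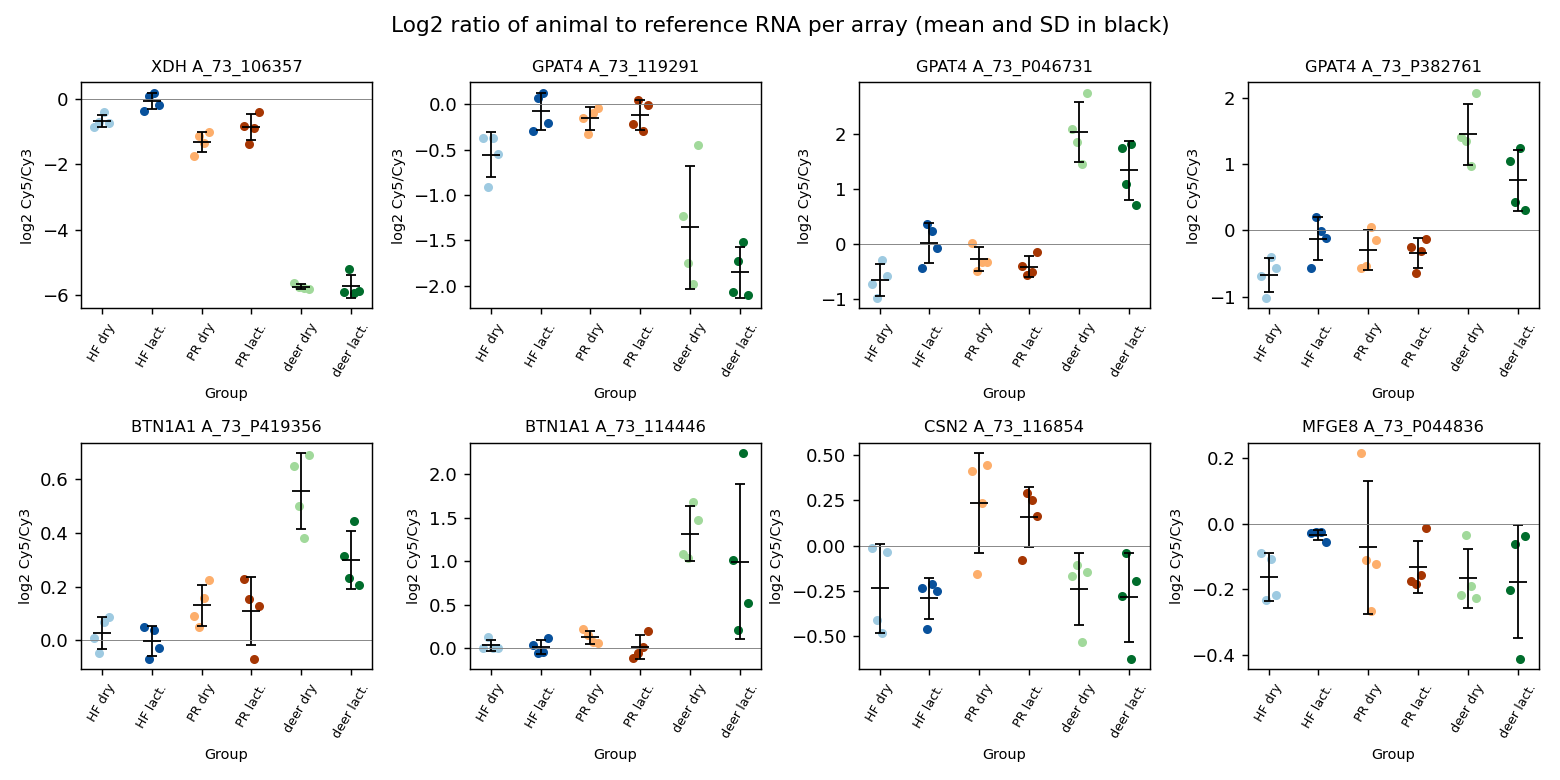
Log2 ratio of animal (Cy5) to reference (Cy3) RNA on each array, by group, for 8 probes of XDH, GPAT4, BTN1A1, CSN2 and MFGE8, with the mean and SD of each group in black. XDH is lowest in deer, with HF values above PR values within each state, and the 3 GPAT4 probes go opposite ways between deer and cattle.

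GPAT4 was measured by 3 probes, all above background on every array. A_73_119291 (chr27:36228937-36228996, plus strand) is the main probe, at 2741 to 19887 Cy5 units over the 23 arrays, A_73_P046731 (chr27:36224687-36227896, plus strand) had 267 to 4049 and A_73_P382761 (chr27:36220692-36220751, plus strand) 126 to 1057. They share a gene and are not independent. In HF all 3 were higher at peak lactation in 4 of 4 animals, by 0.48 (SE 0.22), 0.66 (SE 0.25) and 0.55 (SE 0.23). For the main probe, the values of HF animals 1 to 4 were -0.38, -0.91, -0.38 and -0.55, then -0.29, 0.07, 0.12 and -0.21, and the groups did not overlap. For A_73_P046731 and A_73_P382761 the HF groups overlapped. Their highest dry values were -0.29 and -0.41, and their lowest lactation values -0.44 and -0.57. Without HF animals 2 and 3 the differences of the 3 probes were 0.21, 0.40 and 0.29.

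In deer the mean differences of the same probes were -0.50, -0.69 and -0.70, with 1 or 2 of 4 animals higher at peak lactation. A_73_P382761 gave 1.41, 1.34, 0.96 and 2.08 in dry deer and 1.04, 0.43, 1.25 and 0.30 at peak lactation. The 2 groups overlap, and the fourth deer, highest in the dry period and lowest at peak lactation, held the widest gap. Without deer dry replicate 4 the first was -0.20 and the second -0.46. In PR the 3 probes differed by 0.04, -0.13 and -0.04, and without PR dry replicate 1 by 0.04, -0.03 and -0.13. None passed in limma: the adjusted p was 0.464 to 0.601 in HF, 0.964 to 0.994 in PR, 0.423 to 0.502 in deer, and 0.513 to 0.531 for the deer difference against the cattle difference. With array weights, where deer lactation replicate 4 had a weight of 5.67, all 3 fell in deer, by 0.72, 1.19 and 1.05 (limma adjusted p = 0.0137, 0.00289 and 0.00293), and 17.1% of all probes passed. The deer states lay largely on different slides, so state and slide can hardly be told apart here.

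Against cattle the GPAT4 probes disagreed. A_73_119291 was lower in deer, with differences of -0.996 when dry and -1.75 at peak lactation (SE 0.19 each, limma adjusted p = 1.61e-04 and 1.87e-07). With median centring of each array in place of loess the first was -0.44 with an adjusted p of 0.101. A_73_P046731 was higher in deer by 2.50 and 1.54 (SE 0.22 each, limma adjusted p = 4.10e-09 and 5.70e-06), and A_73_P382761 by 1.93 and 0.98 (SE 0.20 each, limma adjusted p = 5.15e-08 and 3.50e-04). No single direction can be given for GPAT4 between deer and cattle from these probes.

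Of the 3 BTN1A1 probes, A_73_P419356 passed between deer and cattle, A_73_114446 was above background in deer and not in most cattle, and A_73_P062736 did not pass. A_73_P419356 (chr23:31344665-31344723, minus strand) was at 196 to 539 Cy5 units on the 23 arrays, with log2 ratios of 0.03 ± 0.06 in HF dry, 0.00 ± 0.06 in HF lactation, 0.13 ± 0.08 in PR dry, 0.11 ± 0.13 in PR lactation, 0.56 ± 0.14 in deer dry and 0.30 ± 0.11 in deer lactation (SD, n = 4 each). It was higher in deer than in cattle by 0.48 and 0.24 (SE 0.07 each, limma adjusted p = 2.72e-06 and 0.00402), or by 0.86 and 0.50 with median centring. In deer the dry values were 0.65, 0.50, 0.38 and 0.69 and the lactation values 0.31, 0.23, 0.44 and 0.21. The groups overlap through the third deer, the single animal of 4 that was higher at peak lactation. The difference of -0.26 (SE 0.08) had a limma adjusted p of 0.409 (0.00253 with array weights, at -0.35), and in HF and PR the states differed by -0.03 and -0.02. For deer, state and slide can hardly be told apart.

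A_73_114446 (chr23:31342542-31342601, minus strand) was above background on 8 of 8 deer arrays and, among the 16 cattle arrays, on PR dry replicate 1 alone. Deer signals were 158, 170, 259 and 274 Cy5 units in the dry period and 137, 139, 418 and 191 at peak lactation, and the 15 other cattle arrays had 41.2 to 58.0. The deer Cy5 signal was at least 2.93-fold higher than that of HF when dry. At peak lactation it was at least 2.71-fold higher than that of HF and at least 2.57-fold higher than that of PR. The probe entered the tests through the deer arrays alone. These folds take, for the dim group, the lowest signal called above background on each array or the probe's own signal if higher, and with no dye swap they are open to dye bias. Without deer lactation replicate 3, the highest, the deer lactation arrays lay below the dry ones by a log2 difference of -0.74 (limma adjusted p = 0.0445), against -0.32 (adjusted p = 0.711) with it and -0.06 without deer lactation replicate 2. A_73_P062736 (chr23:31343773-31343832, minus strand) was above background on 3 deer dry arrays, 1 deer lactation array and PR dry replicate 1. It entered the tests through the deer dry arrays alone, so its difference is not given.

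MFGE8 was dim in blood. A_73_P044836 (chr21:20890611-20890670, minus strand) measured 63.5 to 161 and A_73_P204977 (chr21:20897219-20897278, minus strand) 63.6 to 164 Cy5 units on the 23 arrays, with PR dry replicate 1 at 7461 and 3147. In HF A_73_P044836 had log2 ratios of -0.09, -0.23, -0.11 and -0.22 in the dry period and -0.03, -0.02, -0.02 and -0.06 at peak lactation. The groups did not overlap, and the mean difference was 0.13 (SE 0.09, limma adjusted p = 0.818). The other probe differed by 0.22 (SE 0.10, limma adjusted p = 0.570), with 3 of 4 HF animals higher, and by 0.35 without HF animals 2 and 3. It was lower in deer than in cattle, at -0.26 and -0.22 (SE 0.09 each, limma adjusted p = 0.0135 and 0.0407), and these calls held in 38 and 27 of 39 alternative settings, while the main probe was not called in either state.

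Across the 30 probes none passed the adjusted threshold between states in HF (9 tested), PR (9 tested) or deer (13 tested), where the share of all tested probes that passed was 0.00906%, 0% and 0.00599%. At an unadjusted limma p under 0.05 there were 5 of 9 in HF, 1 of 9 in PR and 5 of 13 in deer, against 8.11%, 6.04% and 9.54% of all tested probes. The 5 in HF are XDH, the 3 GPAT4 probes and 1 MFGE8 probe, and the 5 in deer the 3 GPAT4 probes, BTN1A1 A_73_P419356 and CSN3 A_73_111101. Of the 13 tested in deer, 4 entered only through deer arrays, the last of these 5 among them, and 4 of the 9 above background on all arrays had an unadjusted p under 0.05. Groups did not overlap for 3 probes in HF (6.42% of all), none in PR (2.14%) and none in deer (4.38%). The median difference of the tested members was 0.22, -0.02 and, over the 9 probes above background on all arrays, -0.05 in deer, against -0.01, 0.02 and 0.01 over all tested probes. The Tukey procedure over the 6 groups, unadjusted over probes, which the series' design text names, passed 0 members in HF (1.09% of all), 0 in PR (0.399%) and 1 in deer (1.10%), BTN1A1 A_73_P419356. With array weights the counts were 0 in HF (0.0785%), 0 in PR (0%) and 7 in deer (17.1%).

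No member probe passed for HF against PR in how the states differed (0% of all) or for the deer effect against the mean cattle effect (0%), where 1 of 9 and 6 of 13 (5 of the 9 above background on all arrays) had an unadjusted p under 0.05 against 3.23% and 8.87% of all. With array weights 5 passed for the latter (9.11%). No member passed between HF and PR, where 3.17% of all probes did when dry and 0.0121% at peak lactation, and 3 of 9 in each state had an unadjusted p under 0.05 (22.4% and 15% of all). Groups did not overlap for 2 probes in each state (9% and 11.9%), and with array weights 2 passed in each (15.9% and 3.39%). Between deer and cattle 8 of 13 tested probes passed in the dry period, 5 higher and 3 lower, and 7 of 10 at peak lactation, 4 higher and 3 lower. Of these, 4 of the 13 and 1 of the 10 entered only through deer arrays. They hold 2 and 1 of the higher calls, A_73_114446 in both states and CSN3 A_73_111101 in the dry period, and of the 9 probes above background on all arrays 6 passed in each state, 3 higher and 3 lower. Of all tested probes 57.4% and 49.3% passed (26.7% and 22.2% higher, 30.7% and 27.2% lower), and at an unadjusted p under 0.05 8 and 7 members stand against 61.3% and 54.7%, so nothing particular to these genes is read from the counts. With array weights 9 and 6 passed (60.9% and 54.1%). The Cy5 signal of A_73_111101 was 66.6 to 67.7 units in deer dry and 52.4 to 58.1 in HF dry, where it was not above background. In PR dry it was 387 on replicate 1 and 45.6 to 55.0 on the other arrays. Because the probe entered through the deer dry arrays alone, its call is not read as a result.

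**Figure D4:**
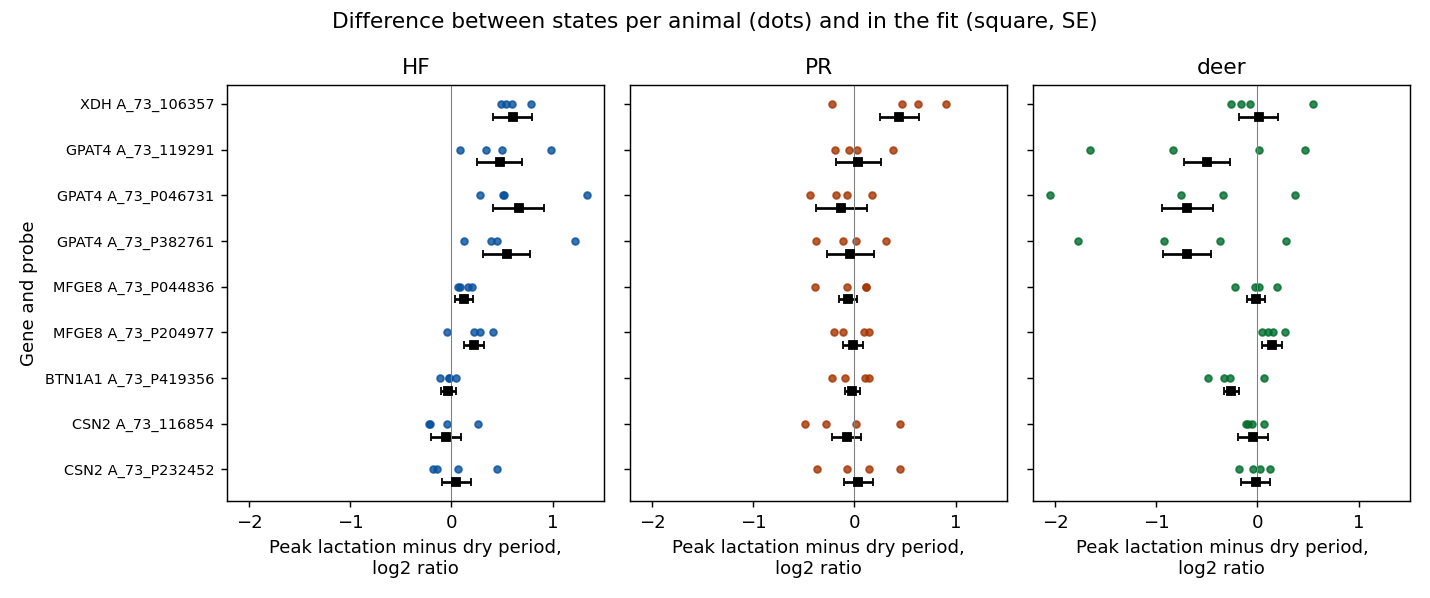
Peak lactation minus dry period in log2 ratio for each animal (dots) and in the linear model (squares, with SE) for the 9 probes above background on all arrays, in HF, PR and deer. XDH and GPAT4 dots lie right of 0 for all 4 HF animals, and GPAT4 squares lie left of 0 in deer.

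**Figure D5:**
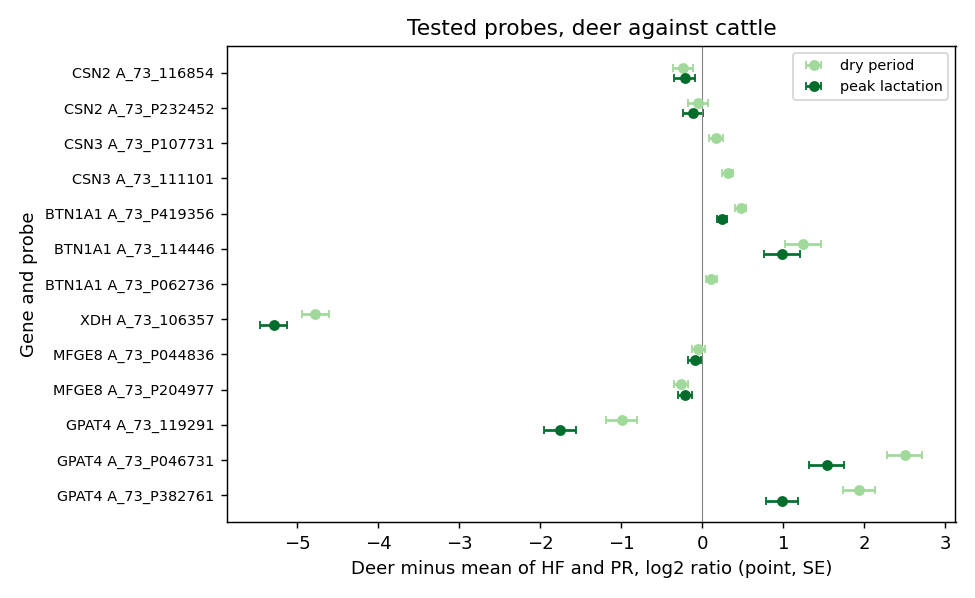
Deer minus the mean of HF and PR in log2 ratio (point and SE) in each state, for the probes of these genes that were tested. XDH lies near -5 and the GPAT4 probes on both sides of 0.

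No blood cell marker passed the adjusted threshold between states in HF, PR or deer. All 7 neutrophil markers were higher at peak lactation in HF and PR and all 7 lower in deer, with an unadjusted p under 0.05 for 7, 1 and 2 of them. The mean log2 ratio of the list per array ran from -1.25 to -0.31 in HF dry, -0.33 to 1.15 in HF lactation, -1.43 to -0.60 in PR dry, -0.57 to 0.28 in PR lactation, -0.10 to 0.80 in deer dry and -1.25 to 0.05 in deer lactation. MMP9, the neutrophil gelatinase, was higher by 1.66 (SE 0.35, limma adjusted p = 0.166) in HF. Of 7 monocyte markers 7 were higher in HF and 5 in PR, with 2 of 6 in deer (medians 0.63, 0.39 and -0.13). Of 5 T cell markers 0, 3 and 1 were higher in HF, PR and deer (medians -0.11, 0.05 and -0.05), and of 4 B cell markers 0, 1 and 1 (-0.47, -0.04 and -0.05). Of 3 erythroid markers 3, 0 and 0 were higher (0.41, -0.55 and -1.59), of 3 platelet markers 0, 1 and 1 (-0.25, -0.07 and -0.21), and of 7 mammary epithelial markers tested 2, 0 and 3. Fewer cells of a type and less RNA per cell cannot be told apart in these samples, and the part of these markers in the XDH and GPAT4 values was not tested.

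Other genes of the pathway were counted by their main probe, and none passed the adjusted threshold between states in any species. Of 15 milk fat synthesis genes, 11 were higher in HF at peak lactation, 8 in PR and 9 of 14 tested in deer, with medians of 0.07, 0.00 and 0.14. VLDLR, a receptor for triglyceride-rich lipoprotein, was higher by 1.13 in HF (SE 0.29, limma adjusted p = 0.264), and DGAT2, which adds the last fatty acid of a triglyceride, by 1.22 (SE 0.42, adjusted p = 0.400). Of the milk fat globule and lipid droplet genes 4 of 7 were higher in HF, 4 of 7 in PR and 4 of 8 in deer. Among them the droplet coats PLIN2 and PLIN3 were higher in HF by 0.53 (SE 0.18) and 0.46 (SE 0.19), with limma adjusted p of 0.420 and 0.510. Of the other secreted milk proteins 3 of 4 were higher in HF, 3 of 4 in PR and 2 of 5 in deer. LYZ, lysozyme, which myeloid cells also make, was higher by 0.60 in HF and 0.59 in PR (SE 0.27 each, limma adjusted p = 0.573 and 0.797). Of 4 lactose synthesis genes 2, 3 and 1 were higher in HF, PR and deer.

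Like genes were sought for each member whose main probe was above background on all 16 cattle arrays. The measure was the Pearson correlation of log2 ratios over these arrays with group means removed, among 11164 candidates. The most like genes were C3H1orf43, RCL1 and RNASET2 for XDH (0.91, 0.89 and 0.86) and HOXC13, ANKFY1 and ARHGEF16 for GPAT4 (0.86, 0.81 and 0.80). For CSN2 they were TRAFD1, CNIH3 and SLC36A4 (0.91, 0.90 and 0.89), for BTN1A1 SCN2B, PPP1R3F and WDR81 (0.89, 0.88 and 0.85), and for MFGE8 PHF10, IRAK2 and SCFD2 (0.89, 0.89 and 0.88). Without PR dry replicate 1 the MFGE8 values became 0.75, 0.73 and 0.84. The points share arrays and dye, and the values are the highest of many candidates, so no link between genes is read from them.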

How the data were processed

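The deposited spot files give each spot's mean and background intensity in both channels, per the file headers, with well-above-background and outlier calls. The authors' log ratio column is log10, per the file headers. The authors' deposited tables, of which there are 3, hold log2 values. Feature Extraction was version 10.7.3.1 per the submitters' processing notes and 10.10.1.1 per the file headers, which place probes on UMD 3.1. Here intensities were background-corrected (normexp, offset 50), adjusted by loess within arrays without 1417 control spots, and averaged per probe, and 4 member values with outlier flags were left out. limma 3.58.1 (statmod 1.5.0, R 4.3.3) fitted 6 group means over 24 arrays, with Benjamini-Hochberg adjustment over every probe called above background in Cy5 on 3 or more of the 4 arrays in a group of the contrast. The fit was tested on simulated data. Figures used matplotlib 3.10.9 in Python 3.11.15. Each gene's main probe has the highest mean Cy5 signal, and per list up to 2 genes with the smallest p may be named. Members and lists were chosen with earlier results of these data known. The labels' subject numbers pair states: same-animal correlations of deviations over 0.1 were found in 4 HF, 2 PR and 4 deer of 4 animals each. The replicates are 4 animals a breed or species. The number of arrays limits the precision.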

Additional observations from a re-analysis of the deposited data

Results flagged for a closer look

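Of 52 groups of main-probe values, 8 had 1 array far from its 3 fellows by Dixon's test, which chance does in about 1 group in 20. XDH in deer lactation replicate 2 was -5.21, against -5.96 to -5.90 in the other deer at peak lactation. CSN2 was -0.46 on HF lactation replicate 2 against -0.25 to -0.21, and -0.53 on deer dry replicate 3 against -0.17 to -0.11. MFGE8 was -0.057 on HF lactation replicate 4 against -0.03 to -0.02, and -0.013 on PR lactation replicate 4 against -0.18 to -0.16. CSN1S1 was -0.056 on HF dry replicate 2 against -0.01 in each of the others, and -0.17 on deer dry replicate 4 against -0.06 to -0.05. LALBA was -0.14 on deer lactation replicate 3 against -0.02 to 0.00. The CSN1S1 and LALBA groups were below background on all 4 arrays.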

How the results depend on the processing

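Over 41 alternative settings, 1 of them (without HF animals 2 and 3 and PR dry replicate 1) chosen after seeing the data, no member probe passed between states in HF or PR, or for how these breeds differed in it. With array weights, where deer lactation replicate 4 had weight 5.67 and PR dry replicate 1 had 0.148, 7 member probes passed in deer between states (17.1% of all probes), 5 for deer against cattle effects (9.11%), and 2 between HF and PR in each state. The deer states lay largely on different slides. Without background subtraction 1 (XDH) passed between HF and PR in each state, and with median centring 1 (XDH) in the dry period. Tukey's comparison gave 1 in deer. Leaving out 1 array gave 0 to 3 between HF and PR in the dry period (3 without PR dry replicate 2, 1 without deer lactation replicate 2), 0 to 1 at peak lactation (1 without PR dry replicate 1), and 0 to 1 in deer between states (BTN1A1 A_73_114446 without deer lactation replicate 3). An animal as a replicate block (correlation 0.0851) left the counts at 0 and, for deer against cattle, at 8 and 7, and it changed no other call count. Deer against cattle ranged from 8 to 9 and from 6 to 7 when 1 array was left out. Of the 30 probes, 21 were near background on most arrays, and no order is read among values near background. The causes were not tested.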
